A study of Mus musculus with 5 samples.

Results

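Regions of open chromatin that lay inside gene bodies but away from promoters, and that were called in naïve CD8+ T cells lacking Tcf1 and Lef1 but not in their WT counterparts, are described here as dKO-only distal genic sites. They were the autosomal peaks of the dKO list that overlapped no deposited WT peak by even 1 bp, had a summit over 1000 bp from every annotated transcript start, and had that summit inside an annotated gene. There were 1432 such sites among 7092 autosomal distal genic dKO peaks, or 20.2% (95% Wilson interval 19.3 to 21.1%), and among 25525 dKO and 56641 deposited peaks in all. Over all 24881 autosomal dKO peaks, 3423 overlapped no WT peak, or 13.8% (13.3 to 14.2%). The sites were thus chosen by a measured readout, presence in the dKO list and absence from the WT list, so that these properties and the fold enrichments of the same lists are given as description, with no test.

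DNase-seq, which sequences the short fragments that DNase I cuts out of accessible chromatin, was performed on 3 WT and 2 dKO replicates of splenic naïve CD8+ T cells. All mice carried the hCD2-Cre transgene and a Rosa26-GFP reporter. The alleles were Tcf7+/+ and Lef1+/+ in WT mice, whereas in dKO mice Tcf7 was fl/fl and Lef1 was fl/fl. The hCD2-Cre transgene acts mainly in mature T cells and does not delete in every cell, and sorting GFP+ TCRβ+ cells of the naïve CD8+ phenotype, with low to medium CD44, was used to keep those in which Cre had been active. The mice were 6 to 12 weeks old, of both sexes and on the C57BL/6 background. The replicates of each genotype were pooled before peaks were called, so each genotype is represented by 1 list with no spread between replicates. The comparisons below describe these 2 pools, their intervals cover counting error over sites only, and no p-value between genotypes can be computed.

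Enhancers are stretches of DNA, often in introns, where transcription factors bind, displace nucleosomes and thereby expose the DNA to nucleases. Tcf1 (encoded by Tcf7) and Lef1 are HMG-box factors that bind a shared motif and help to set the identity of T cells, while Runx and Ets family factors occupy most T cell enhancers alongside them. CTCF is a zinc finger protein that anchors chromatin loops and leaves narrow, sharply placed DNase-sensitive sites. A fold enrichment in these lists is the number of fragments covering the summit (the pileup) relative to the background that MACS2 estimated around it.

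The sequences below show what lies under some of the strongest of these sites and under the strongest site with a CTCF, Runx, AP-1, Gata or Tcf/Lef motif. The strongest site of all, in Gm8257, was also the strongest with an Ets motif and is not shown, since most of its sequence recurs in the genome. All are from the mm9 genome on the plus strand, and capitals mark matches to the CTCF core, Runx, Ets, AP-1, Gata or Tcf/Lef consensus on either strand, whose letters are given with the motif results. In the first pair, neither of which held any of these motifs, the sites rank just behind the strongest of the 1432, in intron 2 of Arfip1 and in coding exon 5 of Cutc.
Arfip1, chr3:84346526-84346626: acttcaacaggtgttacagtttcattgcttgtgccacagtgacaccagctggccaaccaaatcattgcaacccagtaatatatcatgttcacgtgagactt
Cutc, chr19:43835139-43835239: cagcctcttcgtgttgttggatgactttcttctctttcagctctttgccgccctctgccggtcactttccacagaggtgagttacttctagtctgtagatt
The strongest site with the CTCF motif was the fourth strongest of all, in intron 4 of Lpxn, and the motif lay close to its summit.
Lpxn, chr19:12895029-12895129: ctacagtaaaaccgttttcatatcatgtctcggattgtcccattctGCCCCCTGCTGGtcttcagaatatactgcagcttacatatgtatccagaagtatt
The strongest sites with a Runx, an AP-1, a Gata and a Tcf/Lef motif were in introns of Ccdc90a, Tmem231, Ccl1 and Frmd4a. Those of Ccdc90a and Frmd4a held a CTCF motif as well, and the latter an Ets motif.
Ccdc90a, chr13:43642377-43642518: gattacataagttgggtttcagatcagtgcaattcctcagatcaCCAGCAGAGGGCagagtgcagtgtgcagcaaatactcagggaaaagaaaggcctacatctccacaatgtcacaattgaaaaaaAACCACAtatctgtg
Tmem231, chr8:114447520-114447657: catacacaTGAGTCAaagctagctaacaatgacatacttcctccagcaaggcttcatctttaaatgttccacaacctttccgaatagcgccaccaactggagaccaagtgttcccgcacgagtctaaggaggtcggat
Ccl1, chr11:82027991-82028111: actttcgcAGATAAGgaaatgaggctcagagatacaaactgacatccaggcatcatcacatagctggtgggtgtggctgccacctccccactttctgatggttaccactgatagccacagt
Frmd4a, chr2:4522445-4522592: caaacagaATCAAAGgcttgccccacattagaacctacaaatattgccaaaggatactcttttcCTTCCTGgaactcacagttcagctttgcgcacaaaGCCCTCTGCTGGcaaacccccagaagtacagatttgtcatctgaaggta
In contrast, the following pair of sites in the first intron of Hivep3, the gene with the most dKO-only distal genic sites, held an AP-1 and a Runx motif and no CTCF motif. They are shown after their values were seen.
Hivep3, chr4:119570207-119570322: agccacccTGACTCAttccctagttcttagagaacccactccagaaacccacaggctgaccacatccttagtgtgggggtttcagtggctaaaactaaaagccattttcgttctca
Hivep3, chr4:119593931-119594056: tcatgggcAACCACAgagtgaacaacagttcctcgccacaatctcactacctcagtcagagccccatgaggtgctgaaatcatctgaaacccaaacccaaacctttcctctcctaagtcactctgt

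The WT list rested on 83923734 fragments and the dKO list on 62242963, so that the WT pool was 1.35 times as deep. The lowest pileup of any dKO-only distal genic site was 13 fragments, which scales to 17.5 at the depth of the WT pool, where the lowest pileup of a deposited peak was 16. Whether equally open sites would all have been called in the WT pool was not tested. The sorted cell type was checked at promoters. A peak lay within 1000 bp of a transcript start for 5 of 6 pan-T cell markers in WT and 4 of 6 in dKO cells, and for both Cd8a and Cd8b1 in each list, whereas neither list had such a peak at the 3 markers of CD4+ T cells, the 6 of B cells or the 4 of NK cells. Of 6 myeloid markers found in the annotation, only Itgam had a peak, in WT cells. Thy1 was the pan-T cell marker without a promoter peak in both lists.

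The dKO-only distal genic sites were mostly weak and narrow peaks of introns. Their fold enrichment ranged from 1.63 to 17.5 with a median of 5.40, and the median site stood at percentile 19.8 of the dKO list, whereas the 5660 shared distal genic dKO peaks had a median of 7.89 at percentile 47.0. The study's criteria for an accessible site (fold enrichment of at least 4 and q under 0.05) were met by 85.8% of the dKO-only sites and 96.2% of the shared ones. A median width of 127 bp compared with 179 bp for shared sites and 144 bp for the 3708 WT-only distal genic peaks, and 51.6% of the dKO-only sites were under 130 bp wide against 25.6% of shared sites. The dKO-only distal peaks outside genes (intergenic) were alike in this. Their median fold enrichment was 5.49 and their median width 125 bp, and 53.0% were under 130 bp wide. The summit lay in an intron at 1335 of the 1432 sites, or 93.2%, in a coding exon at 51, in a 3′ UTR at 39, in a non-coding exon at 6 and in a 5′ UTR at 1. Features were read from the main transcript of each gene. Some intronic sites thus lay in exons of other transcripts, as in Cd247 below. Intron 1 alone held 32.1% of the sites (Wilson interval 29.7 to 34.5%), compared with 34.9% of the shared distal genic peaks. The median distance to the nearest transcript start was 10954 bp for dKO-only and 9889 bp for shared sites. Protein-coding genes hosted 94.6% of the sites and lincRNA genes 2.86%.

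The weaker a distal genic dKO peak was, the more often it was missing from the WT list. No WT peak overlapped 48.4% of the 419 dKO peaks with a fold enrichment under 4, 34.2% of the 2006 between 4 and 6, 18.2% of the 1632 between 6 and 8, 12.1% of the 1323 between 8 and 10, and 5.02% of the 1712 at 10 or more. The share also depended on position, since 20.5% of the 7179 distal intergenic dKO peaks and 4.90% of the 10610 peaks within 1000 bp of a transcript start had no WT counterpart. Over autosomes it ran from 14.3% of the distal genic dKO peaks on chromosome 15 to 23.7% on chromosome 18. In the opposite direction, 39.6% of the 9352 autosomal distal genic WT peaks overlapped no dKO peak.

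**Figure D1:**
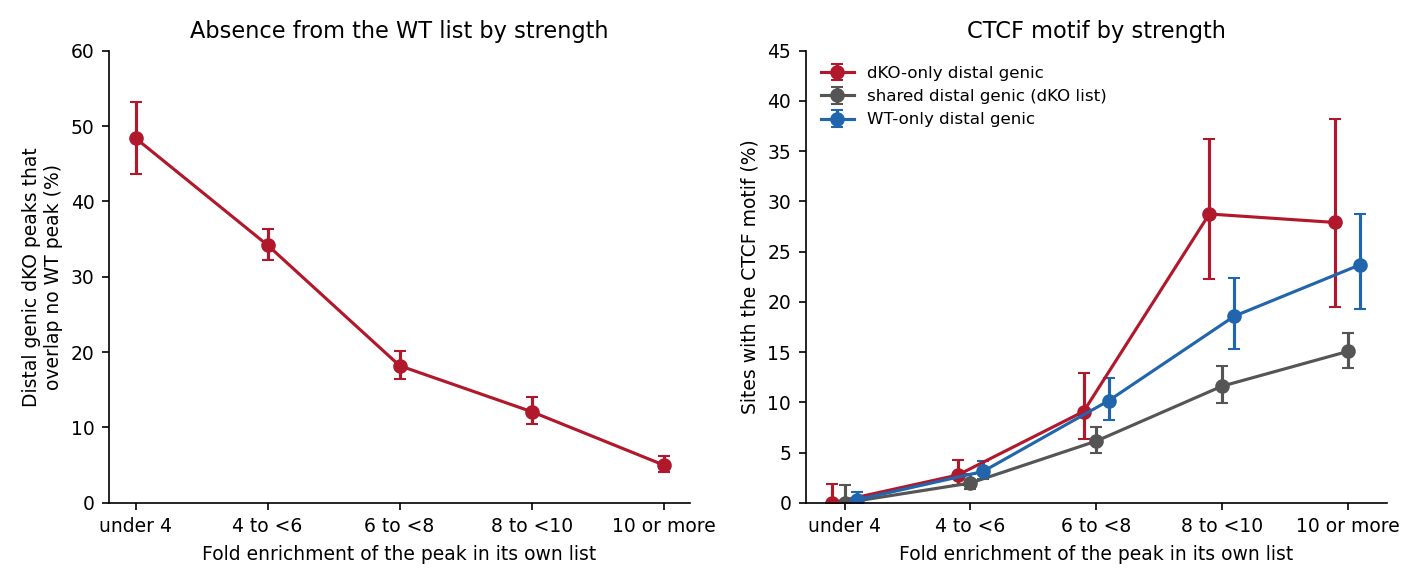
Left, percent of autosomal distal genic dKO peaks that overlapped no WT peak, by the peak's fold enrichment in the dKO list. Right, percent of dKO-only, shared and WT-only distal genic sites with the CTCF motif within 100 bp of the summit, by fold enrichment in the site's own list. Bars are 95% Wilson intervals over sites. Absence from the WT list fell from 48.4% to 5.02% with strength, while the CTCF motif share of the dKO-only sites rose from 0 to 28.8 and 27.9% in the 2 strongest bins.

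Most of these sites were not fringes of a WT peak, although they were often in the same neighbourhood. The median gap to the nearest WT peak was 6.99 kb. A WT peak lay within 100 bp of 12 sites (0.838%), within 500 bp of 132 (9.22%), within 1000 bp of 217 (15.2%, Wilson interval 13.4 to 17.1%) and within 10 kb of 868 (60.6%). At the edge of the rule, sites in Dym and Ctif lay 17 bp from a WT peak and counted as dKO-only, while a peak in Tle4 overlapped a WT peak by 1 bp and did not. At the distance limit, a site in Cnga1 was 1017 bp from a transcript start and was included, and one in Pim1 at 999 bp was not. Of the 1432 sites, 180 (12.6%) had another dKO-only distal genic site within 10 kb, and the median distance to the nearest other one was 174 kb.

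The strongest sites lay in genes of varied roles. The highest fold enrichment, 17.5 at percentile 97.2 of the dKO list, was at a 459-bp peak in Gm8257, an annotated gene of unknown role. Because 89.5% of the 31-base words around its summit occur elsewhere in the genome, reads cannot be placed there with the same certainty. Next came Arfip1, which encodes a Golgi protein, at a fold enrichment of 16.8, Cutc, a copper homeostasis gene, at 16.6, and Lpxn, which encodes the paxillin-related adaptor leupaxin of blood cells, at 16.1. The site in Vmn2r13, a vomeronasal receptor gene, reached 15.4 and lay wholly in repeated sequence. Sites in Nrp2, which encodes a semaphorin receptor, and in Rapgef4, which encodes a cAMP-activated exchange factor for Rap, both stood at 14.7. The top 10 were completed by Vps13b (14.4), Matn2 (14.3) and Rsph6a (13.7), of which Matn2 encodes an extracellular matrix protein and Rsph6a a protein of sperm flagella. Of these 10 peaks, those of Arfip1, Cutc, Lpxn, Nrp2, Vps13b, Matn2 and Rsph6a were between 97 and 128 bp wide.

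Motif content did not enter the choice of sites, and it showed the sites to be rich in Runx and Ets motifs and poor in Tcf/Lef motifs. Of 21 consensus motifs searched on both strands within 100 bp of the summit, the Runx motif TGTGGTT was found at 236 dKO-only distal genic sites, or 16.5% (Wilson interval 14.6 to 18.5%). This compared with 15.9% of shared distal genic dKO peaks, 12.8% of WT-only ones (11.7 to 13.9%) and 5.20% of windows of the same length placed 2000 bp to either side of the dKO-only summits. The Ets motif CAGGAAG was found at 285 sites, or 19.9% (17.9 to 22.0%), below the 26.3% of shared sites (25.2 to 27.5%) and above the 7.79% of the flanking windows. At a fold enrichment of at least 8 in both lists, where sites over weaker WT peaks also counted as dKO-only, the order turned. The shares were then 24.5% of dKO-only and 23.2% of shared sites. Among the 1432 sites themselves, 246 had a fold enrichment of at least 8, and 25 of these held the Ets motif. Both motifs together were present at 44 sites. The Runx-Ets composite (GGATGTGG, whose letters can overlap the Runx motif) was found at 4.54% of dKO-only, 5.92% of shared and 3.56% of WT-only sites.

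The Tcf/Lef motif ATCAAAG stood at 25 of the 1432 sites, or 1.75% (1.19 to 2.56%), compared with 3.45% of shared sites, 8.90% of WT-only distal genic sites (8.02 to 9.86%) and 3.07% of the flanking windows. Around WT-only summits the motif was centred on the peak, at a mean of 1.27% of sites per 25-bp bin within 25 bp of the summit and 0.426% per bin beyond 300 bp. Around dKO-only summits the corresponding values were 0.14 and 0.41%, so that the motif was less frequent at the summit than in the surrounding DNA. A smaller dip of the same kind was present around shared distal genic dKO summits, so it was not particular to dKO-only sites. The value at dKO-only summits also rests on few sites, as only 25 held the motif within 100 bp. The few sites with the motif included that of Frmd4a, a FERM domain scaffold gene, at a fold enrichment of 12.8.

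**Figure D2:**
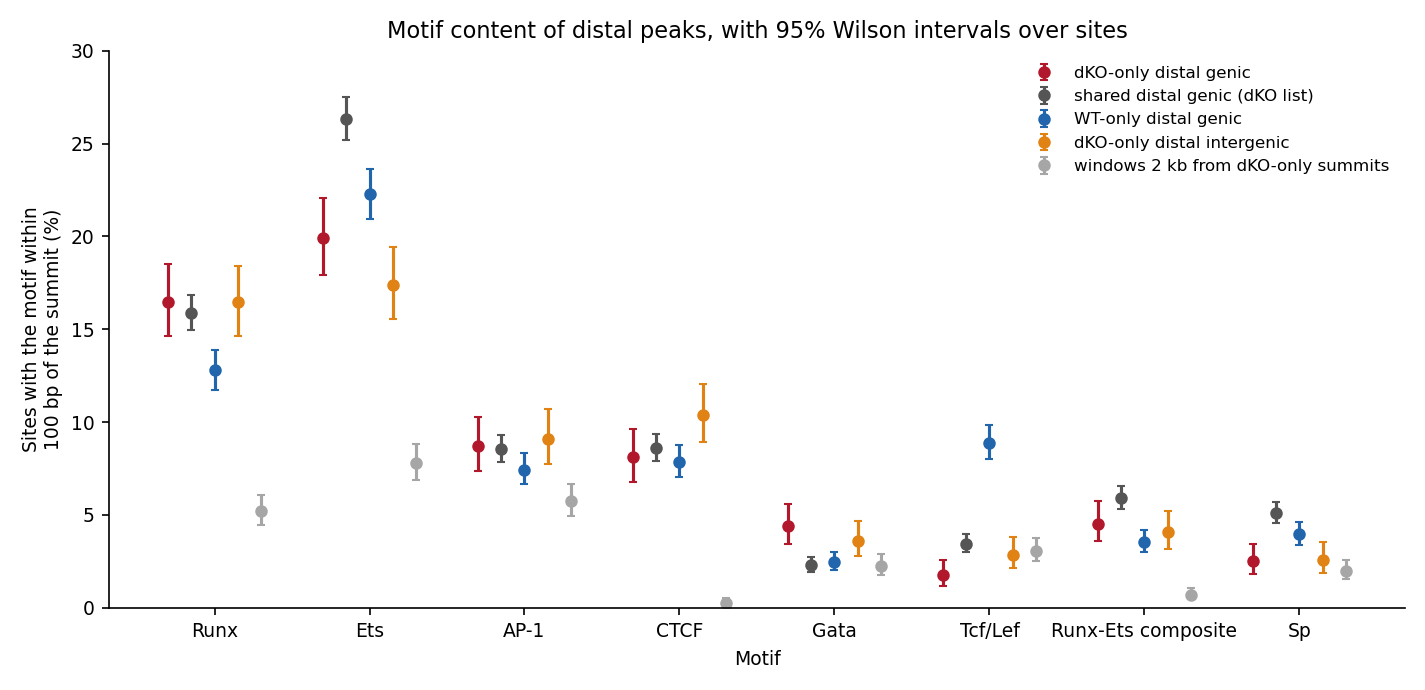
Percent of sites with each of 8 motifs within 100 bp of the summit, for the dKO-only, shared and WT-only distal genic sites, the dKO-only distal intergenic sites and windows 2000 bp from the dKO-only distal genic summits, with 95% Wilson intervals. The dKO-only distal genic sites lie level with shared sites for Runx (16.5 and 15.9%), below them for Ets (19.9 and 26.3%) and Tcf/Lef (1.75 and 3.45%), and above them for Gata (4.40 and 2.30%).

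**Figure D3:**
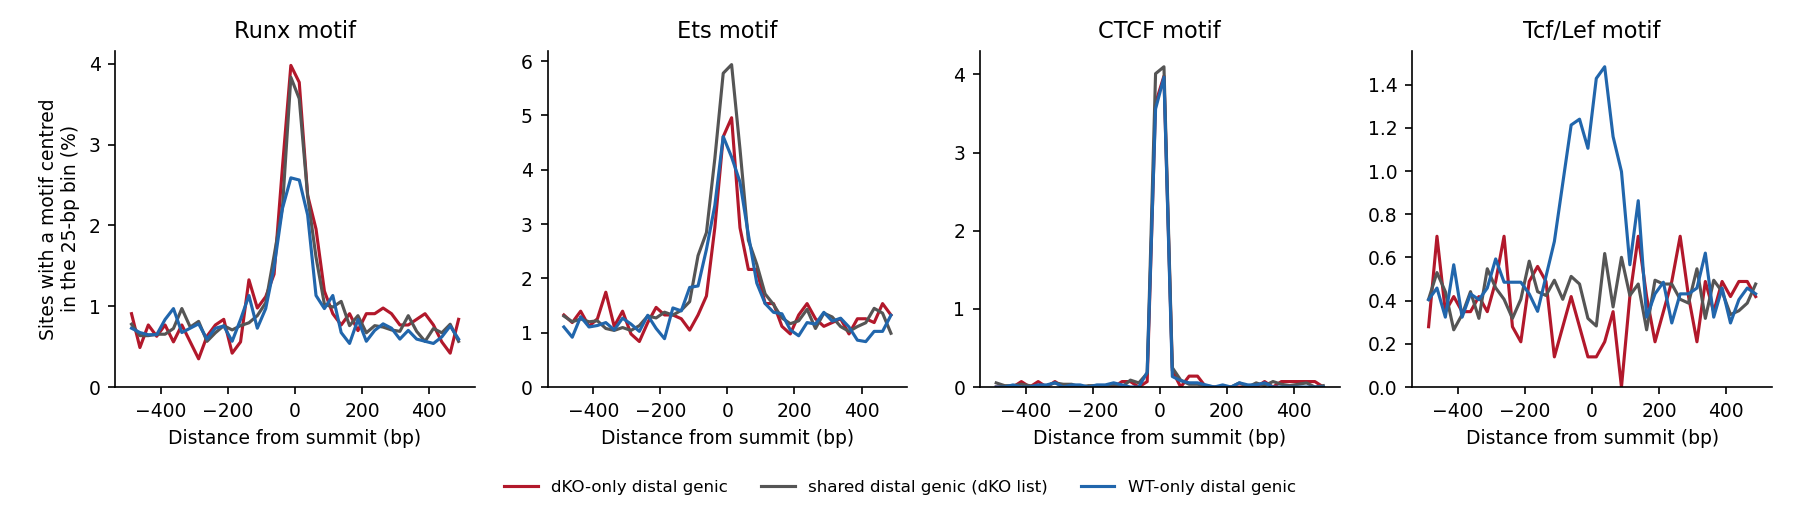
Percent of dKO-only, shared and WT-only distal genic sites with a Runx, Ets, CTCF or Tcf/Lef motif centred in each 25-bp bin, against the distance of the bin from the summit in bp. Runx, Ets and CTCF motifs peak at the summit in the 3 groups of sites, with 3.88, 4.78 and 3.81% per bin within 25 bp of dKO-only summits, while the Tcf/Lef motif peaks at WT-only summits alone.

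The AP-1 motif TGANTCA, bound by Fos, Jun and Batf family proteins, was found at 8.73% of the dKO-only sites (7.38 to 10.3%), 8.53% of shared sites and 5.76% of the flanking windows. The motif AGATAAG, bound in T cells by the zinc finger factor Gata3, was found at 63 sites, or 4.40% (3.45 to 5.59%), while shared sites had it at 2.30% (1.94 to 2.72%), WT-only sites at 2.48% and the flanking windows at 2.27%. Among dKO peaks with a fold enrichment of 4 to 8 the Gata shares were 3.76% (2.74 to 5.14%) and 2.60% (2.06 to 3.28%), whose intervals overlap. Of the 70 distal genic dKO peaks with a Gata motif and a fold enrichment of at least 8, 13 overlapped no WT peak (18.6%, 11.2 to 29.2%). Without the motif this share was 7.86% (6.94 to 8.88%). The Sp motif GGGCGGG, common at promoters, was found at 2.51% of the dKO-only and 5.11% of the shared sites. Median GC content within 100 bp of the summit was 47.8% for dKO-only, 49.8% for shared, 49.3% for WT-only and 46.3% for dKO-only distal intergenic sites. The dKO-only distal intergenic sites, 1471 in number, resembled the genic ones in some of these shares, with Runx at 16.5%, AP-1 at 9.11% and Gata at 3.60%. Their Ets share of 17.4% lay below the interval of the genic sites. Their CTCF share of 10.4% and Tcf/Lef share of 2.86% lay above it.

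The CTCF motif was more frequent at stronger dKO-only sites. Over all strengths its share was 8.10% (6.80 to 9.63%), near the 8.62% of shared and the 7.85% of WT-only sites and far above the 0.244% of flanking windows. No site with a fold enrichment under 4 held it, whereas it was found at 2.77% of sites between 4 and 6, 9.09% between 6 and 8, 28.8% of the 160 sites between 8 and 10 (22.3 to 36.2%) and 27.9% of the 86 sites at 10 or more (19.5 to 38.2%). In the 2 strongest bins the shared sites had it at 11.6% (9.89 to 13.6%) and 15.1% (13.4 to 16.9%), and the WT-only sites at 18.6% (15.3 to 22.4%) and 23.7% (19.3 to 28.8%). The dKO-only distal intergenic sites showed the same rise, with 2.46, 4.93, 14.6, 22.4 and 29% from the weakest to the strongest bin. When a fold enrichment of at least 8 was required in both lists, so that sites over weaker WT peaks also counted as dKO-only, the order against shared sites turned, to 12.7% of dKO-only and 15.6% of shared sites. The 116 dKO-only sites with a CTCF motif had a median fold enrichment of 8.57 and a median width of 112 bp, and lay a median of 11.6 kb from the nearest WT peak. For the 1316 sites without it these medians were 5.21, 130 bp and 6.66 kb. Among distal genic dKO peaks with a fold enrichment of at least 8, 70 of 450 with a CTCF motif (15.6%, 12.5 to 19.2%) and 176 of 2585 without it (6.81%, 5.90 to 7.85%) overlapped no WT peak. For the Ets motif the corresponding shares were 3.50% with it (2.38 to 5.11%) and 9.53% without it (8.40 to 10.8%), and for Runx 5.60% (3.88 to 8.03%) and 8.58% (7.55 to 9.73%).

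CTCF content also moved with peak width. Among peaks under 130 bp with a fold enrichment of 8 to 10 the CTCF motif was found at 36.0% of 100 dKO-only sites (27.3 to 45.8%), 24.6% of 284 shared sites and 30.5% of 200 WT-only sites (24.5 to 37.2%). At a fold enrichment of 10 or more the shares for narrow peaks were 33.3, 29.5 and 29.5%, with intervals that overlap. The part of width in the difference at all widths was not tested.

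By host gene, the sites were spread over 1121 genes, 916 of which held 1 site, 152 held 2, 28 held 3 and 25 held 4 or more. Hivep3 held 12, followed by the lincRNA gene Gm16889 with 11, and by Wwox, Cd247 and Mgat5 with 6 each. Arhgap26, Tbc1d4, Gfod1, Coro2a, Ankrd11, St8sia1 and C130026I21Rik held 5 each. Wwox (an oxidoreductase gene at a common fragile site) and Gm16889 also held many other peaks, with 15 and 24 shared dKO peaks and 10 and 13 WT-only peaks. Mgat5, whose product branches the N-glycans of surface receptors, held 7 shared dKO peaks and 1 WT-only peak. In Gm16889, 6 of the 11 sites had at least 50% of their 31-base words elsewhere in the genome, as did all 5 sites of C130026I21Rik.

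**Figure D4:**
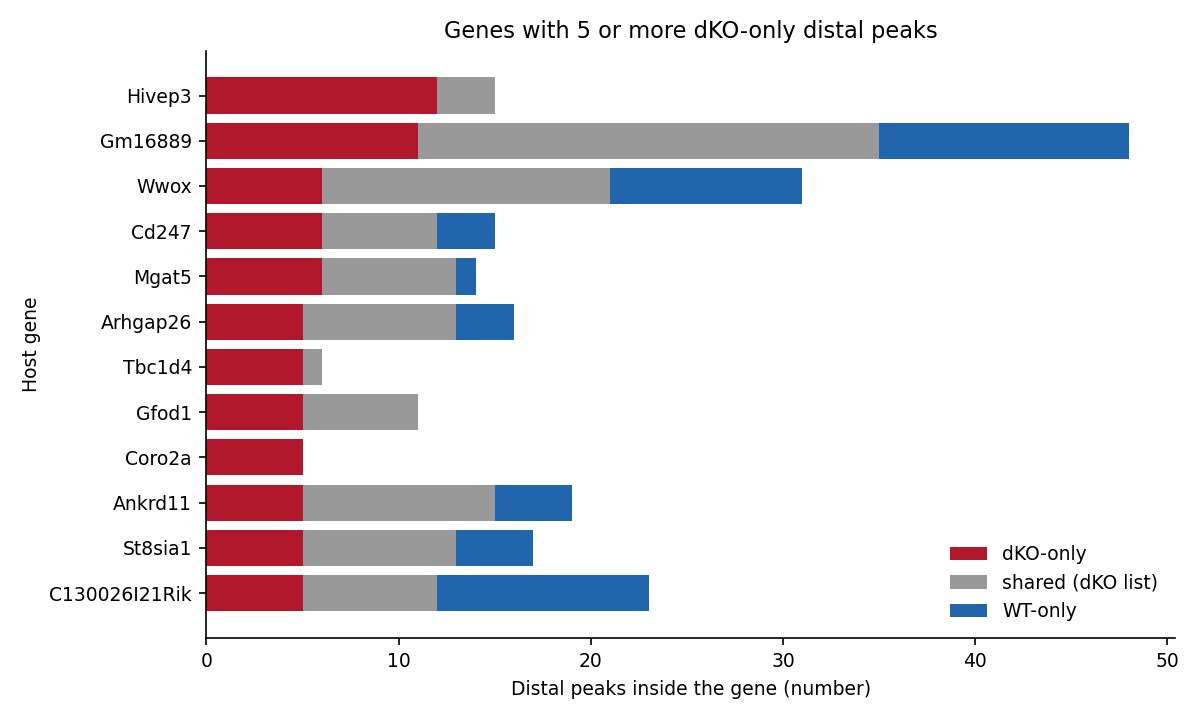
Number of distal peaks in the 12 genes with 5 or more dKO-only distal genic sites, split into dKO-only sites, dKO peaks shared with WT, and WT-only peaks. Hivep3, Tbc1d4, Gfod1 and Coro2a hold no WT-only distal peak, and Coro2a holds no shared one.

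Of the 53 genes with 3 or more dKO-only sites, 13 had no WT-only distal peak, and these included Hivep3, Tbc1d4, Gfod1, Coro2a, Cables1, B4galt1 and Zbtb16. Coro2a and Gm8257 had no shared distal peak either. Coro2a, which encodes an actin-binding coronin, had 5 sites with fold enrichments from 3.55 to 7.81, of which 2 lay mostly in repeated sequence. In Tbc1d4, which encodes a GTPase-activating protein for Rab proteins, 5 sites reached 3.55 to 9.97 beside 1 shared peak. The strongest of them, in intron 12 at chr14:101860108-101860266, stood at percentile 65.4 and held a CTCF motif. Gfod1 had 5 sites between 4.26 and 9.47 beside 6 shared dKO peaks.

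Hivep3, which encodes a large zinc finger protein that also acts as an adaptor in TNF receptor and AP-1 signalling, held the most sites. Its 12 dKO-only sites were spread along introns 1, 2, 3 and 5 of the 404-kb gene, with pileups from 17 to 50 fragments and fold enrichments from 4.26 to 10.9. Of these sites, 4 stood between percentiles 65.9 and 71.9 of the dKO list, and the other 8 between 7.43 and 41.1. The strongest, at chr4:119789025-119789167 in intron 5, had a pileup of 45 fragments at percentile 71.9, and the nearest WT peak was 83.7 kb away. In intron 1, the sites at chr4:119485421-119485595 and chr4:119570159-119570474 each had a pileup of 42, and that at chr4:119593765-119594116 had 50. The WT list held 3 peaks in the gene, all shared, at percentiles 7.80, 10.8 and 65.5, where the dKO list gave 43.6, 14.2 and 72.3 for the same places. Among the 12 sites, the Ets motif was found at 4, the Runx motif at 1, the AP-1 motif together with the Runx-Ets composite at 1, and neither the CTCF nor the Tcf/Lef motif at any. At none of the 12 did repeated 31-base words reach 50%.

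**Figure D5:**
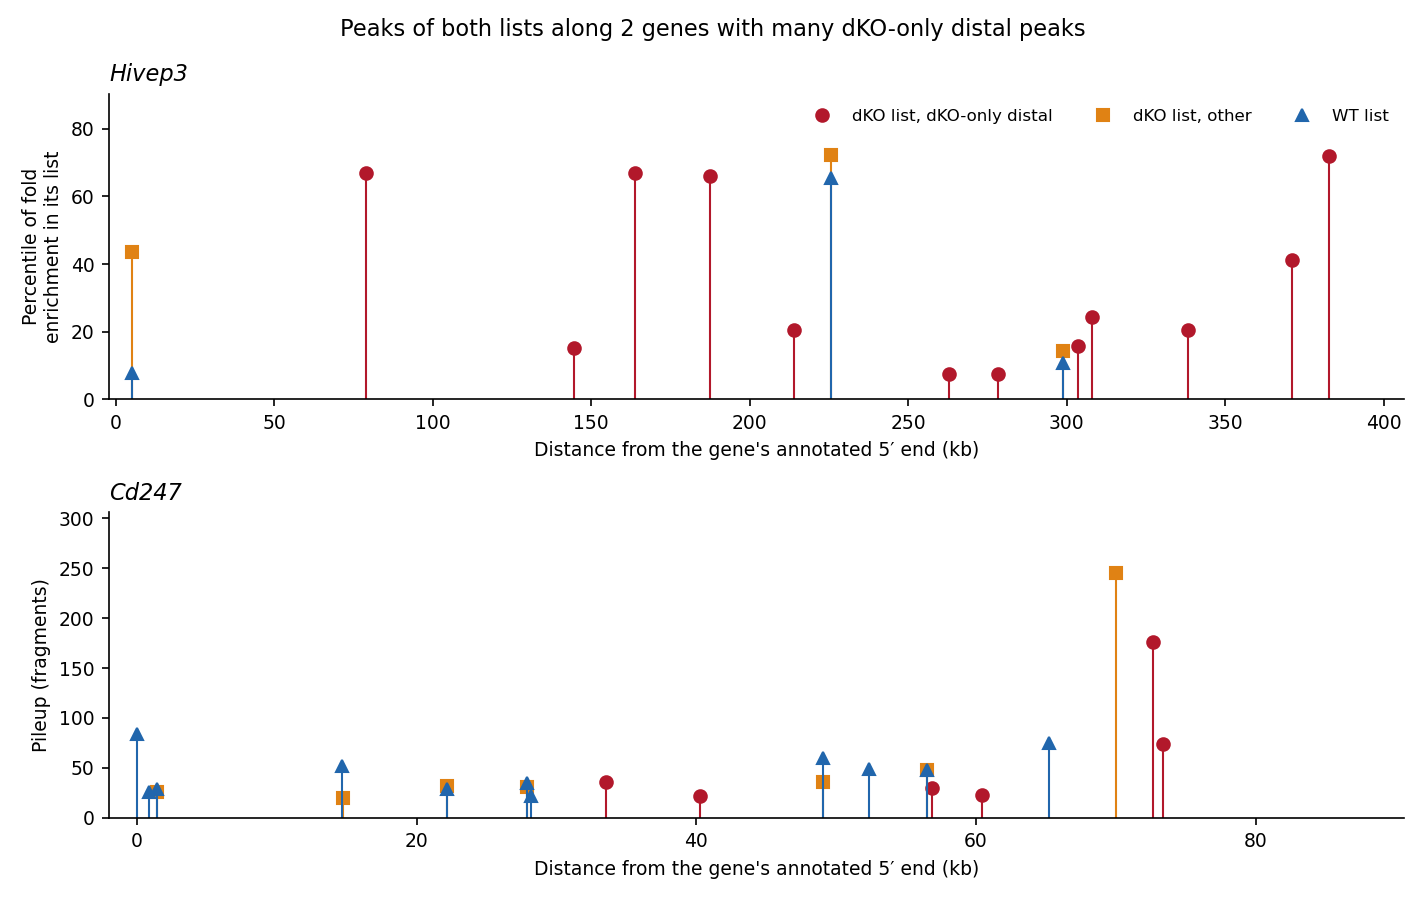
Peaks of both lists along Hivep3 (top, percentile of fold enrichment in the peak's own list) and Cd247 (bottom, pileup in fragments, not scaled to depth), against distance from the annotated 5′ end of the gene in kb. Circles are dKO-only distal sites, squares other dKO peaks and triangles WT peaks. Hivep3 has 12 dKO-only sites and 3 shared positions, and the highest pileups of Cd247, 245 and 176 fragments, lie towards its 3′ end and in the dKO list alone.

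Cd247, which encodes the CD3ζ signalling chain of the T cell receptor, held 6 dKO-only sites beside 6 shared dKO and 3 WT-only distal peaks. The 4 sites in intron 1 had pileups of 22 to 36 fragments over a background of 4.07 to 8.42 fragments (the pileup divided by the fold enrichment after MACS2 adds 1 to each). The other 2, towards the 3′ end, had pileups of 176 and 74 over a background of 23.9 and 23.8. The 711-bp site at chr1:167791154-167791864 was the widest of all 1432, and both lay mainly in annotated exons of other Cd247 transcripts (100 and 82.3% of their bases). Another dKO peak nearby, with a pileup of 245, was within 358 bp of a transcript start and so was not counted among the sites. In WT cells the background under Cd247 peaks ranged from 5.71 to 10.99 fragments.

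Among the 1432 sites, 8 had a pileup of at least 100 fragments, and they lay in Aldoa, Sfi1, Cd247 and Trac. The 2 of Aldoa, which encodes a glycolytic aldolase, were in coding exons 5 and 7 with pileups of 450 and 341. All of their bases were exonic, and 53.2 and 66.1% of their 31-base words occur elsewhere in the genome. The 6 dKO peaks in Aldoa had backgrounds of 47.2 to 48.9 fragments against 14.8 to 18.2 for the 6 WT peaks, while the median over each list was 3.97 and 5.74. In Trac, the constant gene of the T cell receptor α chain, the site in coding exon 3 had a pileup of 142, and 93.7% of its bases were exonic. The 4 of Sfi1, of which that with a fold enrichment of 1.63 had 51.5% repeated words, had fold enrichments of only 1.63 to 2.26 over backgrounds of 86.2 to 93.9 fragments. What raised the coverage of these genes was not tested.

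Genes of known T cell pathways were hosts to some of the sites, at shares near those of the other peak groups. Of 38 genes for T cell receptor signalling, 15 held 25 sites, or 1.75% of the sites (1.19 to 2.56%), against 1.38% of shared and 1.46% of WT-only distal genic peaks. The strongest was in intron 4 of Themis, which tunes receptor signalling during thymic selection, with a fold enrichment of 13.2 at percentile 85.1 and the nearest WT peak 114 kb away. Ubash3b, which encodes a phosphatase that restrains this receptor, had a site at 10.9, and Nfatc2, which encodes the calcium-dependent factor NFAT1, had one at 10.3. Lck, Nfatc1, Prkcq and Ptpn6 held 2 sites each. The Themis site held both an Ets and a CTCF motif.

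Of 49 lymphoid transcription factor genes, 14 held 23 sites (1.61%, compared with 1.55% of shared sites). Zbtb20, a zinc finger repressor gene, had the strongest at a fold enrichment of 10.9, followed by Ikzf3, which encodes Aiolos, at 8.05, and the Ets family gene Elf1 at 6.78. Ets1, another member of that family, held 4 sites between 4.50 and 5.64, and Zbtb16, which encodes the PLZF factor of innate-like T cells, held 3. Batf, Fosl2, Notch1 and Foxo3 held 1 each, and Runx2, Klf6 and Elf1 held 2 each.

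Genes of naïve T cell identity and homing held 10 sites in 7 of 22 genes, or 0.698% (0.380 to 1.28%), compared with 1.11% of shared and 1.16% of WT-only sites. Actn1, which encodes the actin crosslinker α-actinin-1, had the strongest, at 10.4 in intron 20 with the nearest WT peak 30.1 kb away. Bcl11b, which encodes a factor that commits cells to the T lineage, had 2 sites, the stronger at 5.98, and Dapl1 had 1 at 5.49. Bach2, a repressor gene of effector differentiation, had 1 at 3.52. Lef1, deleted in dKO cells, held 2 sites in intron 3 at fold enrichments of 4.73 and 4.49.

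Genes of effector, helper and other lineages held few sites in the hand-written lists. In the cytotoxic and NK cell list, 3 of 36 genes held 1 site each (0.209% of the sites, against 0.283% of shared sites), namely Ctsw, which encodes the protease cathepsin W, and Runx3 at 4.97 each, and Prdm1, which encodes Blimp-1, at 4.06. Ctla4 and Btla, genes of inhibitory receptors, held 1 each at 5.55 and 4.61, and their list had 0.14% of the sites against 0.406% of shared sites. Helper and regulatory T cell genes with a site (0.209%, against 0.548% of shared sites) were Ahr, the gene of the aryl hydrocarbon receptor, at 13.2 and percentile 85.1, Ikzf2, which encodes Helios, at 5.42, and Il2ra, which encodes CD25, at 4.26. The Ahr site was 113 bp wide in intron 1 and lay 1.65 kb from a WT peak. B lineage genes with a site were Blk, a Src family kinase gene, at 10.2, the commitment factor gene Pax5 at 6.16 and the adaptor gene Blnk at 5.21, and these 3 sites made up 0.209% of the total against 0.194% of shared and 0.324% of WT-only sites. Tcf4, whose product E2-2 specifies plasmacytoid dendritic cells, held 2 sites, the stronger at 8.05, and Clec9a, a dendritic cell receptor gene, held 1 at 5.50.

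Cytokine receptor and JAK-STAT genes held 10 sites in 7 of 38 genes, or 0.698%, against 0.813% of shared sites. Ifnar2, a chain of the type I interferon receptor, had the strongest at 6.94, followed by Il6ra at 5.45 and Stat6 at 4.97, and Jak1 and Tgfbr2 held 2 each. Integrin, adhesion and chemokine receptor genes held 7 sites in 7 of 36 genes, or 0.489%, against 0.654%. Itgae, which encodes the CD103 integrin of tissue-resident cells, was strongest at 7.58, and Itga5 and Itga6 followed at 7.10 and 5.45. In each of these 10 lists, myeloid and dendritic cell genes included, the interval of the share of dKO-only sites contained the share of shared sites.

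The study's own lists of changed genes and regions compare the same 2 genotypes, by RNA-seq for genes, these DNase-seq libraries for accessibility clusters, H3K27ac ChIP-seq for super enhancers and Hi-C for hubs. They were chosen on the study's own samples, so overlaps with them are not independent evidence. Genes listed as higher in dKO cells by RNA-seq (312 in the copy used here) hosted 101 of the dKO-only sites in 57 genes, or 7.05% (5.84 to 8.50%), against 4.40% of shared and 2.97% of WT-only sites. Genes listed as lower in dKO cells (257) hosted 27 sites, or 1.89% (1.30 to 2.73%), against 2.81% of shared and 3.51% of WT-only sites. A fold enrichment of at least 8 was also required in both lists, so that sites over weaker WT peaks counted as dKO-only. The order of the first share then turned, to 4.05% of dKO-only and 4.76% of shared sites. Much of the first share was due to few genes. Of the 12 genes with 5 or more sites, Hivep3, Cd247, Coro2a, Gfod1 and Tbc1d4 were on the list, compared with 39 of the 916 genes with 1 site (4.26%). The former were also longer, with a median of 222 kb against 57.8 kb. Of genes with 5 or more shared sites 6.25% were on the list, and of those with 1 shared site 2.61%. Without Hivep3, Cd247, Coro2a, Gfod1 and Tbc1d4 the share of sites was 4.86% (3.85 to 6.12%) for dKO-only and 4.13% for shared sites.

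The study's 12 lists of genes enriched in other blood lineages or T cell subsets were broader, and for 9 of them the interval of the dKO-only share contained the share of shared sites. The monocyte list hosted 33 sites, or 2.30% (1.65 to 3.22%), against 1.27% of shared and 1.02% of WT-only sites. The γδ T cell list hosted 62, or 4.33% (3.39 to 5.51%), against 3.04 and 2.62%. The plasmacytoid dendritic cell list hosted 44, or 3.07% (2.30 to 4.10%), against 2.23 and 2.56%, and 2.25% without Hivep3. Lineage-enriched genes listed as raised in dKO cells hosted 127 sites, or 8.87% (7.50 to 10.5%), against 6.13% of shared and 4.94% of WT-only sites. This list also held Hivep3, without which its share was 8.10%, and Cd247, Coro2a and Tbc1d4, with 6, 5 and 5 sites. Its share without all of these genes was not computed.

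Of the study's differential accessibility sites that were linked to target genes, clusters 1 and 3 were more accessible in dKO cells and clusters 2 and 4 less. Cluster 1 (132 regions in the copy used here) overlapped 35 dKO-only sites in 26 host genes, or 2.44% of the sites (1.76 to 3.38%). It overlapped 24 shared sites (0.424%) and no WT-only site. The strongest of the 35 was in intron 6 of Chn2, which encodes the Rac-regulating protein β-chimaerin, at a fold enrichment of 11.1 and 65.9 kb from the nearest WT peak. The next 4 were the strong Hivep3 sites described above, followed by sites in Tbc1d4 (8.91), S100a10 (8.61), which encodes the partner of annexin A2, and Wdtc1 (8.52). Cluster 3, with 11 regions, overlapped 4 dKO-only sites, in Actn1 (10.4), Abcb1b, which encodes a drug efflux pump (8.92), Cd5, an inhibitor of T cell receptor signalling (7.81), and Galnt6, which encodes an O-glycosylation enzyme (6.64). Clusters 2 and 4 overlapped none. Because the clusters and the sites were both chosen on differences between these libraries, such absences largely follow from the choice.

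Super enhancers are long stretches of strong H3K27 acetylation. The super enhancers and hubs used here are the study's subset linked to genes whose expression changed, not its full sets, so the shares describe that subset only. Those listed as stronger in dKO cells (88 regions) contained 100 dKO-only sites, or 6.98% (5.78 to 8.42%), against 5.69% of shared (5.12 to 6.32%) and 3.34% of WT-only sites. Super enhancers listed as stronger in WT cells (49 regions) contained 26 sites, or 1.82% (1.24 to 2.65%), against 2.46 and 3.48%. The 35 hubs of chromatin contacts listed as specific to dKO cells contained 23 sites (1.61%, 1.07 to 2.40%) against 0.883% of shared (0.671 to 1.16%) and 0.485% of WT-only sites, and the 49 WT-specific hubs contained 15 (1.05%) against 1.77 and 2.37%.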

How the data were processed

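DNase-seq was performed by the authors on splenic naïve CD8+ T cells, with 3 WT and 2 dKO replicates. Per the labels and the study's methods, reads were aligned to mm9 with Bowtie2 2.2.5, uniquely mapped reads (MAPQ over 10) were kept and duplicates removed. Peaks were called by the authors with MACS2 2.1.1.20160309 on the pooled replicates of each genotype, without a control library, at a p-value cutoff of 1e-05. Per the file headers, each call was given 2 input files of the same name apart from a sorting suffix, with 1 fragment kept per position and a redundant rate of 0.5. In the deposited lists the pileup counts fragments over the summit, unscaled for depth. Fold enrichment, a ratio, was set by the authors' MACS2 run against the background of that pool, and the deposited −log10 p and −log10 q values belong to the same comparison. A pileup of 13 fragments was the lowest in the dKO list and 16 the lowest in the WT list.

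From these lists, overlaps of at least 1 bp, distances, host genes and features were computed against the mm9 annotation (GENCODE vM1) with Python 3.11.15, pandas 2.3.3 and pysam 0.24.0. Backgrounds were derived from pileup and fold enrichment. A total of 21 consensus motifs were searched on both strands in the 201 bp around each summit, and the share of 31-base words found elsewhere in the genome was counted. The code was tested on simulated data. No test between genotypes was possible with 1 pooled list each, so shares are given with 95% Wilson intervals, which cover counting error over sites only. Members and lists were chosen with earlier results of these data known. Named are the 10 strongest sites, the genes holding the most sites, up to 3 sites for each hand-written gene list, up to 8 in the study's cluster 1 and those in cluster 3, sites in genes the study discusses, the strongest site with each motif and the sites at the limits of the rule. Other genes with 5 or more sites, genes with 3 or more sites and no WT-only peak, other genes of the lists, and Aldoa, Trac and Sfi1 were named after their values were seen. The study's gene and region lists were used for their members alone. No column of per-sample values was left out, and the peak criteria, overlap, distance and motif window were varied. Some genes of the lists and markers are not reported here.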

Additional observations from a re-analysis of the deposited data

How the results depend on the processing

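No paired analysis was possible because each genotype is 1 list of pooled replicates, and for the same reason no replicate could be left out. Of 113 values recomputed under 13 alternatives, 88 stayed within their 95% interval or, for counts, within 1.5 times, and 25 moved. Where a criterion was applied to both lists, a site over a weaker WT peak also counted as dKO-only. There were 766 sites at a fold enrichment of at least 8 in both lists and 912 at a q under 1e-10. The share of distal genic dKO peaks without a WT peak was 21.4% under the study's criteria, 25.2% at a fold enrichment of at least 8, 16.9% at the stricter q, 29.3% among the 20000 strongest peaks of each list and 18.3% when a gap of up to 500 bp counted as shared. In the same order, the share of sites within 1 kb of a WT peak was 12.5, 3.52, 10.4, 8.01 and 6.54%, and it was 17.8% when 50% of the shorter peak had to overlap. Within 50 bp of the summit the motif shares were 4.12% for AP-1, 11.7% for Runx, 14.1% for Ets and 0.63% for Tcf/Lef. The Ets share was 24.5% at a fold enrichment of at least 8 in both lists, where it exceeded the 23.2% of shared sites, 24.2% among the 20000 strongest and 22.4% at a fold enrichment of 4 to 8. The CTCF share was 12.7% at a fold enrichment of at least 8, 11.3% at the stricter q and 4.68% at 4 to 8, against 15.6, 10.4 and 4.07% of shared sites. The share in genes listed as higher in dKO cells was 4.05% at a fold enrichment of at least 8, below the 4.76% of shared sites, and 4.86% without the 5 listed genes with 5 or more sites. That result, its alternatives and the restriction to unrepeated sequence were added after seeing the data. The cause of these shifts was not tested. The Tcf/Lef share was lower in dKO-only than in shared sites in 13 of 13 settings the Ets share in 12 of 13 and the CTCF share in 10 of 13. Absence from the WT list depends on the calling threshold, and the pools differ in depth, so a site missing from one list was not detected as a peak there rather than shown to be closed.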
